A study of Mus musculus with 15 samples.

Results

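Integrins are cell surface adhesion receptors made of 1 alpha and 1 beta chain, and 10 of their genes were followed here: the alpha subunits Itga4, Itga5, Itgav, Itgal, Itgam and Itga2b and the beta subunits Itgb1, Itgb2, Itgb3 and Itgb7. They were taken by name from the 32434 entries of the deposited table, which writes them in capitals as ITGA4, ITGA5, ITGAV, ITGAL, ITGAM, ITGA2B, ITGB1, ITGB2, ITGB3 and ITGB7. The panel comprised 5 myeloma lines of the mouse, IL6Myc-1 to IL6Myc-5, each derived from mice of the IL6Myc genotype and each represented by 3 technical replicate libraries. The labels name no treatment, age or promoter, and no normal plasma cell was part of the panel. The question for this family was which alpha and beta chains each line transcribes, and hence which pairs its transcripts allow.

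An integrin chain normally reaches the cell surface only after it has joined a partner in the endoplasmic reticulum, so a pair can be no more abundant than its scarcer chain. The chains that Itga4 and Itgb1 encode form VLA-4, which holds myeloma cells to VCAM-1 on marrow stroma and to fibronectin. With Itgb7 the same alpha chain forms a receptor for MAdCAM-1 of the gut. Itgal and Itgb2 give LFA-1, the leukocyte receptor for the ICAM proteins, and Itgam and Itgb2 give Mac-1 of myeloid cells. Itgav and Itgb3 give the vitronectin receptor, known from osteoclasts, and Itga2b and Itgb3 the fibrinogen receptor of platelets. Inside the cell, talin and kindlin bind the beta tails and switch integrins on.

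The libraries held 19068543 to 41165599 estimated counts each. Levels are given as CPM, counts relative to TMM-scaled library size, and each ± is the SD of the 3 libraries unless marked SE. A line is a single biological unit, so the p-values measure only the spread between technical replicates. All 10 plasma cell markers were at 1 CPM or more in each line, and their sum was 108000 to 110000 CPM per library in IL6Myc-2 and 44500 to 63700 CPM in the others. Markers of other cells summed to little: 1.43 to 4.8 CPM for neutrophils, 0.743 to 11.8 CPM for T and NK cells with the top in IL6Myc-2, and 14.3 to 27.2 CPM for stroma and endothelium, where Pecam1 was the single marker at 1 CPM or more. In RNA from whole cultures, fewer cells with a transcript and less transcript per cell cannot be told apart.

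Of the 10 subunits, 7 had a promoter entry in the RefSeq table of the GRCm38.p6 build. Itgb3, Itgal and Itgb2 had none. The stretches of Itgam, Itga5 and Itgb7 are shown, the first because its level ranged the most among the 7, and the other pair because their levels moved together across the lines. Each runs from 250 bases before to 50 bases after the annotated start. Capitals mark GAGGAA or its reverse complement, the core to which ETS factors such as PU.1 can bind.
Itgam (chr7:128062390-128062689, plus strand): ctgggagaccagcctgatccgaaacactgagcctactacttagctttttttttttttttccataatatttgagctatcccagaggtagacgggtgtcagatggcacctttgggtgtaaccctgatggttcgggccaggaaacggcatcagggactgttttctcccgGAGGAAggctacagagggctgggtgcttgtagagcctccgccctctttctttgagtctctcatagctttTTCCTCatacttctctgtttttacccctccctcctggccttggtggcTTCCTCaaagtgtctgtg
Itga5 (chr15:103366742-103367041, minus strand): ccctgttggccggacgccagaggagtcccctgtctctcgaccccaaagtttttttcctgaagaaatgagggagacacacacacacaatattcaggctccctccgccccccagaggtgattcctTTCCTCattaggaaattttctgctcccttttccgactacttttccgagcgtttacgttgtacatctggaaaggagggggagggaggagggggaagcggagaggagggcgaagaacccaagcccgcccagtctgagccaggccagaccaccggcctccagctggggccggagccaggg
Itgb7 (chr15:102231886-102232185, minus strand): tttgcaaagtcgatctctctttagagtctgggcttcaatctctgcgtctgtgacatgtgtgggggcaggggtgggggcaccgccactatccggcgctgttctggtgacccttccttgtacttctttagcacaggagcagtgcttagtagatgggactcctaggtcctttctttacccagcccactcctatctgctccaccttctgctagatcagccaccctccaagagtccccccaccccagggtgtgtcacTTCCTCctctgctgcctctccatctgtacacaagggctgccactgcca
The Itgam stretch held 3 matches over both strands, and those of Itga5 and Itgb7 held 1 each. Of the 7 members with an entry, 6 held at least 1 match, against 28.3% of all 32851 promoter stretches of the same length. A loose NF-kB pattern was in 4 of the 7 and in 50.8% of all stretches. It was searched on both strands, and overlaps between the motifs were not removed. These matches describe letters in a window and not binding.

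All 10 subunits passed the filter of at least 1 CPM in at least 3 libraries, and 8 of them differed among the 5 lines, as did 32.1% of the 11773 genes tested. Calling needed 2 things, an edgeR quasi-likelihood F-test with adjusted p below 0.05 and extreme lines at least 1 log2 unit apart. The members had been chosen with results of these data known, so the share of called members is a description. Their median log2 difference between the highest and the lowest line was 1.48, against 0.70 for all tested genes. The beta subunit Itgb3 and the myeloid alpha subunit Itgam ranged the furthest, whereas Itgal and Itgb1, the backbone of LFA-1 and of the VLA receptors, stayed within 1 log2 unit. Taken by pairs of lines, 33 of 100 member tests were called, against 13.3% over all genes, and the 10 pairs share libraries with each other. Against IL6Myc-1, 6 members were called in IL6Myc-2 (19% of all genes), 3 in IL6Myc-3 (11.4%), 5 in IL6Myc-4 (15.7%) and 3 in IL6Myc-5 (14.6%). Against IL6Myc-2, 3 were called in IL6Myc-3 (14%), 2 in IL6Myc-4 (14%) and 3 in IL6Myc-5 (12.2%). IL6Myc-4 and IL6Myc-3 differed in 2 members (11.5%), IL6Myc-5 and IL6Myc-3 in 3 (9.86%), and IL6Myc-5 and IL6Myc-4 in 3 (11.3%). Of the 40 steps between neighbouring lines in the members' orders of level, 26 had an adjusted p under 0.05 in edgeR and 4 were called with the size threshold.

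**Figure D1:**
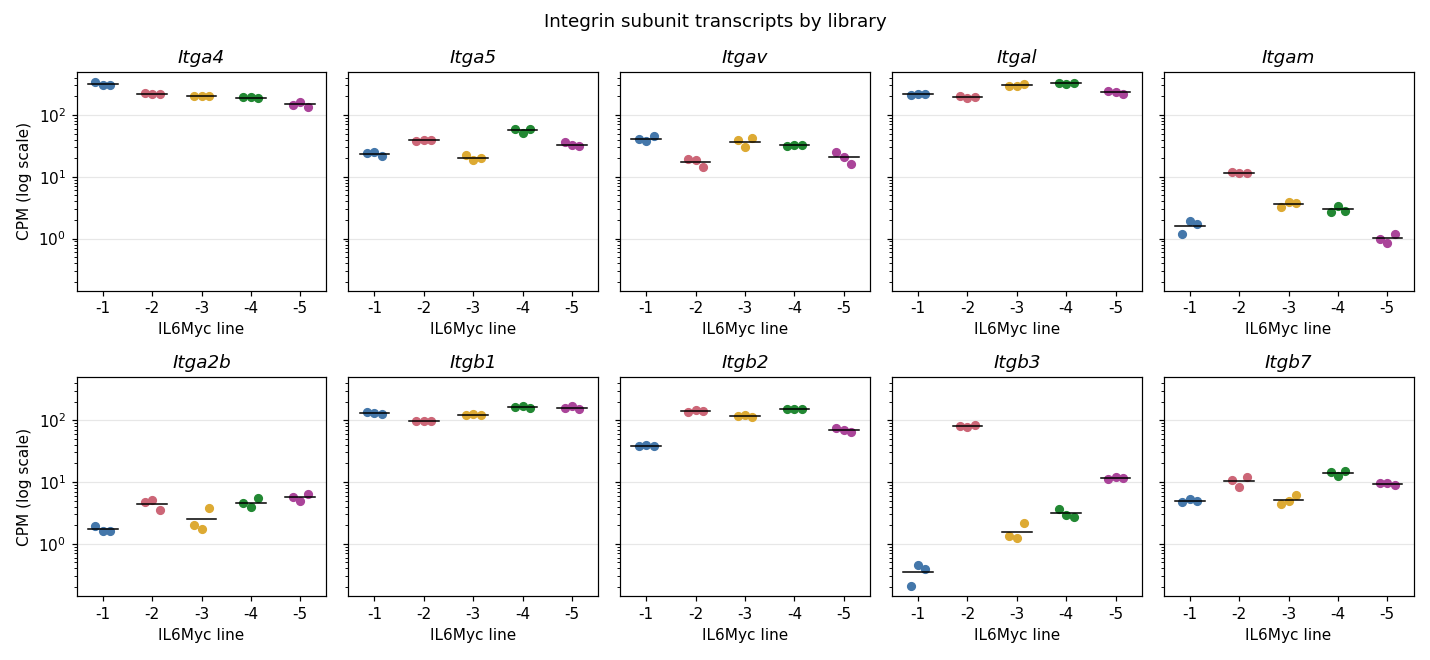
CPM of the 10 integrin subunit transcripts on a log axis, with 1 point per library, the 5 lines on the x axis and a bar at the mean of each line. Itgb3 spans 0.208 CPM (a library of IL6Myc-1) to 84.2 CPM (a library of IL6Myc-2), while Itgal and Itgb1 form nearly level rows.

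The common beta chain of the VLA receptors, Itgb1, was lowest in IL6Myc-2 at 96.6 ± 1.5 CPM and highest in IL6Myc-4 at 162 ± 6.4 CPM. The other lines were at 132 ± 5.4 CPM in IL6Myc-1, 122 ± 2.7 CPM in IL6Myc-3 and 158 ± 7.4 CPM in IL6Myc-5. Its span of 0.75 log2 units passed the F-test (edgeR adjusted p = 6.34e-10) but not the size threshold. The 2 highest lines overlapped and did not differ beyond their spread (log2 difference of IL6Myc-5 from IL6Myc-4 -0.03 ± 0.04 SE, edgeR adjusted p = 0.53).

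Its main alpha partner by transcript level, Itga4, was highest in IL6Myc-1, with 343, 305 and 300 CPM in its 3 libraries. IL6Myc-5 was lowest, with 144, 164 and 136 CPM. These groups lay apart, and the pair was the only one called for this gene (log2 difference of IL6Myc-5 from IL6Myc-1 -1.10 ± 0.06 SE, edgeR adjusted p = 9.54e-11). IL6Myc-2, IL6Myc-3 and IL6Myc-4 lay between, at 221 ± 2.6, 203 ± 0.77 and 191 ± 4.4 CPM, and the steps from IL6Myc-4 to IL6Myc-3 and from IL6Myc-3 to IL6Myc-2 had adjusted p values of 0.22 and 0.0834 in edgeR. In the annotation, 1124 of the 13978 exonic bases of Itga4 overlap Cerkl on the opposite strand, whose mean was 18.5 CPM or less in each line. The sources used here do not say whether strand was used in counting.

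The fibronectin receptor chain Itga5 had its highest level in IL6Myc-4, at 59.0, 51.2 and 58.2 CPM. It was lowest in IL6Myc-3, at 22.3, 18.7 and 19.9 CPM. IL6Myc-4 lay above every library of the other lines, yet the difference was called only against IL6Myc-3 (log2 difference 1.47 ± 0.08 SE, edgeR adjusted p = 2.22e-10) and IL6Myc-1 (1.24 ± 0.08 SE, edgeR adjusted p = 8.59e-10). The levels of IL6Myc-1, IL6Myc-5 and IL6Myc-2 were 23.7 ± 2.1, 33.0 ± 2.6 and 38.9 ± 0.69 CPM. Without replicate 1 of IL6Myc-3, that line was also called below IL6Myc-2.

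The gut-homing chain Itgb7 followed almost the same order of lines. Its libraries were at 14.5, 12.6 and 15.3 CPM in IL6Myc-4, above every other library. IL6Myc-1 and IL6Myc-3 were lowest at 5.0 ± 0.32 and 5.17 ± 0.85 CPM and overlapped (edgeR adjusted p = 0.742), and IL6Myc-5 and IL6Myc-2 lay between at 9.37 ± 0.37 and 10.3 ± 1.8 CPM. Itgb7 was called higher in IL6Myc-4 than in IL6Myc-1 (log2 difference 1.502 ± 0.14 SE, edgeR adjusted p = 4.85e-08) and IL6Myc-3 (1.44 ± 0.13 SE, edgeR adjusted p = 1.35e-07), and higher in IL6Myc-2 than in IL6Myc-1 (1.05 ± 0.14 SE, edgeR adjusted p = 4.51e-06). The last of these was lost without replicate 1 of IL6Myc-1 or replicate 3 of IL6Myc-2 and with limma on log2(CPM + 1). IL6Myc-3 was called against IL6Myc-2 without replicate 2 of IL6Myc-2 or replicate 3 of IL6Myc-3. Over the 15 libraries Itga5 and Itgb7 had a Pearson's r of 0.942 on log2(CPM + 1), the highest among the 45 pairs of members, with 3 libraries of each line sharing their source.

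Among the leukocyte integrins, the LFA-1 alpha chain Itgal had its lowest mean, 194 ± 4.5 CPM, in IL6Myc-2 and its highest, 326 ± 8.2 CPM, in IL6Myc-4, a span of 0.75 log2 units. IL6Myc-1, IL6Myc-5 and IL6Myc-3 were at 215 ± 4.9, 231 ± 13 and 299 ± 12 CPM, and the step between the first 2 of these had an edgeR adjusted p of 0.0512. Its beta chain Itgb2 varied far more. The libraries of IL6Myc-1 held it at 38.8, 40.1 and 37.6 CPM, and those of IL6Myc-5 at 75.5, 68.2 and 65.5 CPM. Every library of the other lines was higher, with 117, 121 and 112 CPM in IL6Myc-3, 135, 145 and 140 CPM in IL6Myc-2, and 151, 152 and 150 CPM in IL6Myc-4.

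The low level of Itgb2 in IL6Myc-1 was called against IL6Myc-2, IL6Myc-3 and IL6Myc-4, by 1.58 to 1.96 log2 units, with the largest distance to IL6Myc-4 (1.96 ± 0.05 SE, edgeR adjusted p = 7.1e-15). Against IL6Myc-5 it was lower by 0.84 log2 units, under the size threshold. IL6Myc-5 was in turn called lower than IL6Myc-4 and IL6Myc-2. The call against IL6Myc-2 rested on a log2 difference of -1.005 ± 0.05 SE (edgeR adjusted p = 5.02e-11), at the threshold, and was lost without replicate 2 of IL6Myc-2, without replicate 2 or 3 of IL6Myc-5, without a filter on low counts and with limma.

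The Mac-1 alpha chain Itgam was a minor transcript with a clear order. IL6Myc-2 stood apart from each of the other 4 lines, with 11.8, 11.4 and 11.5 CPM. IL6Myc-3 followed with 3.22, 3.93 and 3.80 CPM and IL6Myc-4 with 2.71, 3.36 and 2.84 CPM, and these overlapped (edgeR adjusted p = 0.152). IL6Myc-1 had 1.18, 1.95 and 1.73 CPM and IL6Myc-5 had 0.994, 0.849 and 1.17 CPM. The call of IL6Myc-3 above IL6Myc-1 was lost without replicate 1 of IL6Myc-1, and IL6Myc-4 was called above IL6Myc-1 without replicate 2 of IL6Myc-1. With limma on log2(CPM + 1) the calls of IL6Myc-3 above IL6Myc-1 and of IL6Myc-5 below IL6Myc-4 were lost.

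The mean of Itgam in IL6Myc-2 was 3.17-fold that of the next line (log2 difference of IL6Myc-3 from IL6Myc-2 -1.66 ± 0.16 SE, edgeR adjusted p = 1.46e-07). Beside it, markers of macrophages and osteoclasts summed to 6.73 to 7.60 CPM per library in IL6Myc-2. They summed to 5.69 to 6.64 CPM in IL6Myc-5, where Itgam was lowest, and to 1.66 to 5.41 CPM in the other lines. Of the 8 markers, 2 were at 1 CPM or more in IL6Myc-2: Acp5, an osteoclast enzyme, at 4.46 CPM and Mrc1 at 2.19 CPM. Both had their highest means there, though Mrc1 was not called (edgeR F-test adjusted p = 0.0654). Acp5 was next highest in IL6Myc-5, at 3.2 CPM. The other markers on the list had their highest means in IL6Myc-3 or IL6Myc-5. Of these, Ctsk was lowest in IL6Myc-2, at 0.127 CPM against 0.877 CPM in IL6Myc-5. Lyz2 and Cd14 had 0 counts in IL6Myc-2, which allows up to 0.0527 CPM each, and Lyz2 had 0 counts in 3 of the lines. The part of such cells in the level of Itgam was not tested. In the annotation, 3450 of the 5024 exonic bases of Itgam are shared with the gene model Gm49368 on the same strand, so the counts of Itgam can depend on how such reads were assigned.

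The means of the vitronectin receptor alpha chain Itgav and of its partner Itgb3 ran in opposite order, though most steps of Itgav were not resolved. Itgav was highest in IL6Myc-1 at 40.3, 37.6 and 45.8 CPM and lowest in IL6Myc-2 at 19, 18.6 and 14.2 CPM. Those groups lay apart (log2 difference of IL6Myc-2 from IL6Myc-1 -1.25 ± 0.15 SE, edgeR adjusted p = 1.75e-06), and IL6Myc-3 was also called above IL6Myc-2. The second of these calls was lost without replicate 3 of IL6Myc-2 or replicate 3 of IL6Myc-3. IL6Myc-3, IL6Myc-4 and IL6Myc-5 were at 37.1 ± 6.6, 32.4 ± 0.45 and 20.8 ± 4.5 CPM. The step from IL6Myc-2 to IL6Myc-5 had an edgeR adjusted p of 0.186. Those from IL6Myc-4 to IL6Myc-3 and from IL6Myc-3 to IL6Myc-1 had 0.263 and 0.383. IL6Myc-5 was called below IL6Myc-1 without replicate 1 or 2 of IL6Myc-1, without replicate 1 of IL6Myc-5 and with no filter on low counts, and below IL6Myc-3 without replicate 1 of IL6Myc-5.

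Of the 10 subunits, Itgb3 had the most pairs of lines called. IL6Myc-2 held 79.3, 77.2 and 84.2 CPM. IL6Myc-5 came next with 11.1, 12.1 and 11.5 CPM, IL6Myc-4 had 3.71, 2.94 and 2.76 CPM, and IL6Myc-3 had 1.34, 1.26 and 2.14 CPM. IL6Myc-1 was lowest at 0.208, 0.458 and 0.384 CPM, from 9, 12 and 8 estimated counts. The ranges of the 5 lines did not overlap, and 9 of the 10 pairs of lines were called.

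The mean of Itgb3 in IL6Myc-2 was 6.95-fold that in IL6Myc-5 (log2 difference of IL6Myc-5 from IL6Myc-2 -2.80 ± 0.12 SE, edgeR adjusted p = 3.98e-12) and 229-fold that in IL6Myc-1 (log2 difference of IL6Myc-2 from IL6Myc-1 7.94 ± 0.18 SE, edgeR adjusted p = 9.37e-16). IL6Myc-2 was thus higher than each of the other 4 lines in Itgb3 and Itgam, as were 3.09% of all genes, and IL6Myc-1 was lower than each of them in Itgb3, as were 3.2% of all genes. No member was set apart in another line or direction, where the shares of all genes were 1.15% for IL6Myc-1 higher, 1.1% for IL6Myc-2 lower, 0.612% and 0.501% for IL6Myc-3 higher and lower, 1.33% and 1.37% for IL6Myc-4, and 0.849% and 0.603% for IL6Myc-5. Of the 10 subunits, these 2 were set apart in at least 1 line, against 12% of all genes. The single pair not called was IL6Myc-3 and IL6Myc-4, with a log2 difference of 0.97 ± 0.18 SE (edgeR adjusted p = 0.000323), and it was called without replicate 3 of IL6Myc-3 or without replicate 2 or 3 of IL6Myc-4. With limma on log2(CPM + 1) the call of IL6Myc-3 above IL6Myc-1 was lost. Over the 15 libraries Itgav and Itgb3 had a Pearson's r of -0.899 on log2(CPM + 1), with the same sharing of libraries as above.

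The platelet chain Itga2b was low in each line, with means of 1.75 ± 0.19 CPM in IL6Myc-1, 2.49 ± 1.1 in IL6Myc-3, 4.48 ± 0.87 in IL6Myc-2, 4.65 ± 0.75 in IL6Myc-4 and 5.69 ± 0.75 CPM in IL6Myc-5. IL6Myc-1 was called below IL6Myc-2, IL6Myc-4 and IL6Myc-5, and IL6Myc-3 below IL6Myc-5. In IL6Myc-3 a single library stood off, with 2, 1.71 and 3.77 CPM. Without that library, replicate 3, the differences of IL6Myc-3 from IL6Myc-2 and IL6Myc-4 were called as well, and without replicate 2 the difference from IL6Myc-5 was lost. With limma on log2(CPM + 1) the calls of IL6Myc-2 against IL6Myc-1 and of IL6Myc-5 against IL6Myc-3 were lost. Of the 9 megakaryocyte and platelet markers, Itga2b among them, Pf4, Ppbp, Gp1bb and Treml1 had 0 counts in all 15 libraries, and the list summed to 2.37 to 9.06 CPM per library. Gp9, a chain of the platelet receptor for von Willebrand factor, was called as well, with 2.94 CPM in IL6Myc-4, 2.19 in IL6Myc-5, 1.16 in IL6Myc-1, 0.384 in IL6Myc-2 and 0.314 CPM in IL6Myc-3. Its highest means were thus in the lines with the highest means of Itga2b. Gp6, the platelet collagen receptor, was at 1.20 CPM in IL6Myc-2 and 0.116 CPM or less elsewhere. The part of such cells in the level of Itga2b was not tested.

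To compare different subunits, CPM were divided by the length of the longest coding sequence of each gene, in kilobases. On this scale Itga4 and Itgal together made up most of the transcripts of the 6 alpha subunits in each line. Itga4 took 55.6 ± 2.3% of them in IL6Myc-1 and 33.8 ± 1.0% in IL6Myc-4, and Itgal took 32.6 ± 1.8% and 49.5 ± 0.42%. Among the beta subunits, Itgb1 took 74.4 ± 0.89% of the transcripts of the 4 beta subunits in IL6Myc-1 and 29.0 ± 0.35% in IL6Myc-2, where Itgb2 took 43.5 ± 1.5% and Itgb3 took 24.4 ± 0.76%. Itgb3 took 4.66 ± 0.24% in IL6Myc-5 and under 1% on average in IL6Myc-1, IL6Myc-3 and IL6Myc-4. Itgb7 stayed between 2.05 ± 0.37% in IL6Myc-3 and 4.17 ± 0.49% in IL6Myc-4. These shares depend on the length used. Itga4 has 9767 transcript bases for 3096 coding bases, Itgal 4533 for 3603 and Itgb3 5784 for 2361. By whole transcript length, Itga4 and Itgb3 would take smaller shares, and Itga4 need not exceed Itgal in IL6Myc-1. Shares on that scale were not computed.

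**Figure D2:**
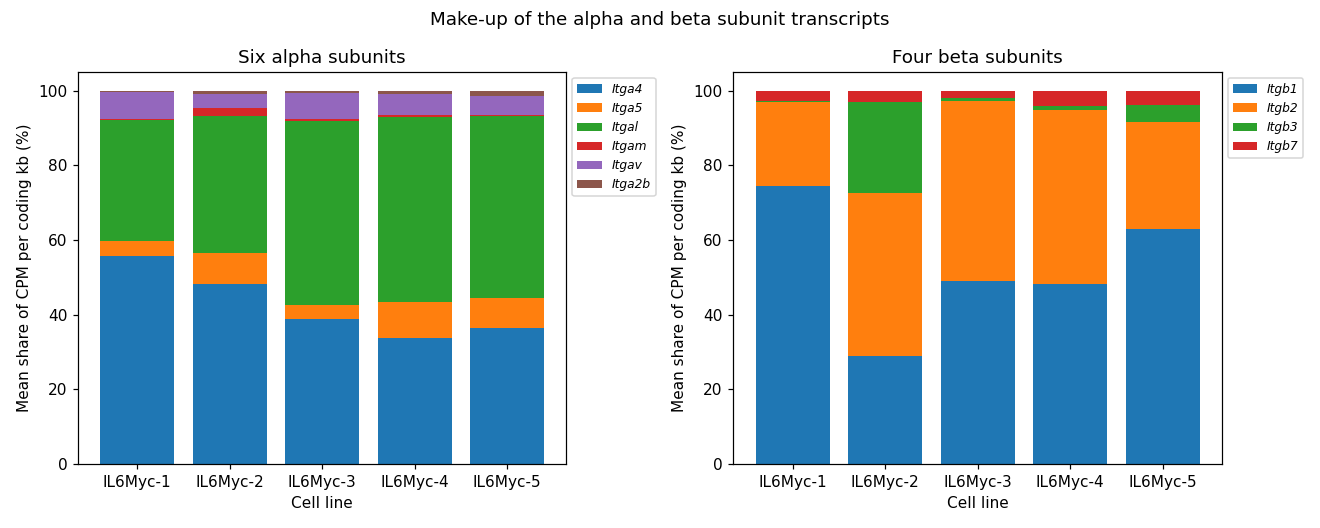
Mean share, in percent, of each subunit in the summed CPM per coding kilobase of the 6 alpha members (left) and the 4 beta members (right), by cell line, over 3 libraries each. Itgb3 forms a wide band in IL6Myc-2 (24.4%) and a narrow one in IL6Myc-5 (4.66%).

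Known partners among the members form 8 pairs. A pair was counted as detected in a line when both transcripts were at 1 CPM or more in all 3 libraries. That held for 37 of 40 combinations of pair and line: 8 pairs in IL6Myc-2, IL6Myc-3 and IL6Myc-4, 7 in IL6Myc-5 and 6 in IL6Myc-1. IL6Myc-1 missed both Itgb3 pairs, and IL6Myc-5 missed Itgam with Itgb2, since 2 of its libraries held Itgam just under 1 CPM. The answer depended on the level asked for. At 5 CPM, 26 of 40 combinations were left. Itga4 with Itgb1, Itga5 with Itgb1, Itgav with Itgb1 and Itgal with Itgb2 held in all 5 lines. Itga4 with Itgb7 held in 3 lines, IL6Myc-2, IL6Myc-4 and IL6Myc-5, Itgav with Itgb3 in 2, IL6Myc-2 and IL6Myc-5, Itgam with Itgb2 in 1, IL6Myc-2, and Itga2b with Itgb3 in 0. These are statements on transcripts, and neither protein nor surface level was measured.

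The pairs differed widely in the level of their scarcer transcript. Among these 8 pairs of the members, VLA-4 and LFA-1 stood highest. For Itga4 with Itgb1 the scarcer chain ran from 40.4 ± 0.64 CPM per coding kilobase in IL6Myc-2 to 61.7 ± 1.4 in IL6Myc-4, a 1.53-fold range. Itgb1 was the scarcer chain in IL6Myc-1, IL6Myc-2 and IL6Myc-3 and Itga4 in IL6Myc-4 and IL6Myc-5, in all 3 libraries of each. This order depended on the length used. With whole transcript lengths, an alternative added after the data had been seen, Itga4 with its 9767 bases was the scarcer chain in each line.

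For Itgal with Itgb2 the scarcer chain ran from 16.8 ± 0.53 CPM per coding kilobase in IL6Myc-1 to 65.3 ± 0.60 in IL6Myc-4, a 3.89-fold range. Itgb2 was the scarcer chain in 4 lines. The ratio of Itgal to Itgb2 was 3.55 ± 0.13 in IL6Myc-1, 2.12 ± 0.082 in IL6Myc-5, 1.65 ± 0.13 in IL6Myc-3 and 1.38 ± 0.045 in IL6Myc-4, and it was below 1 in each library of IL6Myc-2, at 0.890 ± 0.051. Between the lines these ratios did not overlap, so that IL6Myc-1 had the largest surplus of the alpha transcript.

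Itga4 exceeded Itgb7 in each line, by 10.6 ± 1.3 times in IL6Myc-4 and 49.6 ± 6.5 times in IL6Myc-1, so Itgb7 was the scarcer chain of that pair throughout. Compared with Itgb1, which competes for the same alpha chain, Itgb7 was at a ratio of 0.0374 ± 0.0033 in IL6Myc-1 and 0.106 ± 0.017 in IL6Myc-2. Itga5 and Itgav were each scarcer than Itgb1 in each line. The scarcer chain of the Itga5 pair ran from 6.43 ± 0.58 CPM per coding kilobase in IL6Myc-3 to 17.8 ± 1.4 in IL6Myc-4. Itgam was at 0.00958 to 0.0546 of the level of Itgb2, and its pair ran from 0.287 ± 0.047 in IL6Myc-5 to 3.31 ± 0.065 CPM per coding kilobase in IL6Myc-2.

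**Figure D3:**
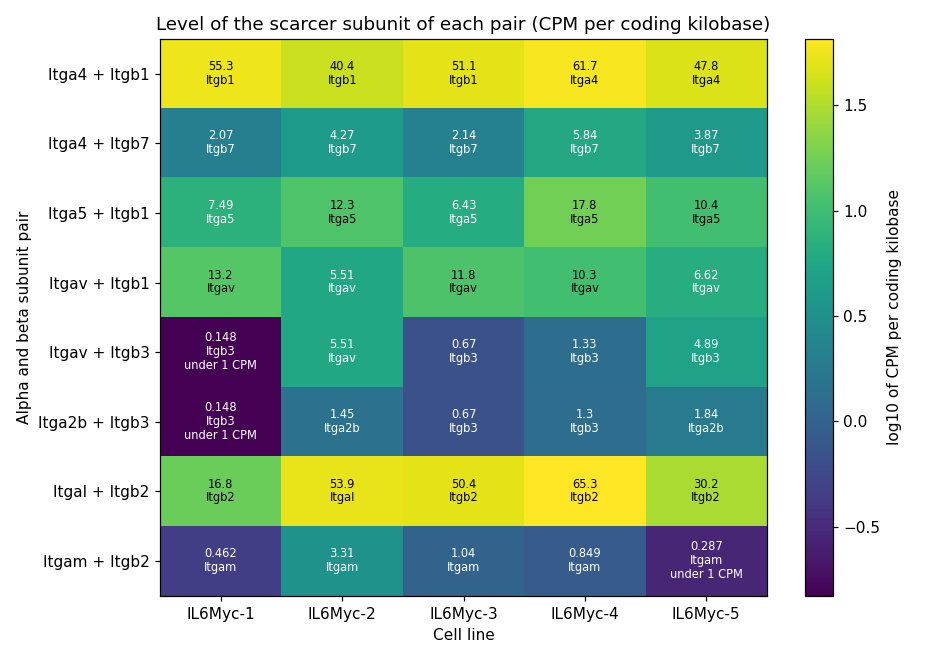
Heat map of the 8 alpha and beta pairs (rows) in the 5 lines (columns), coloured by the log10 of the mean level of the scarcer subunit in CPM per coding kilobase. Each cell prints that level and the name of the scarcer subunit, and 3 cells are marked where a library was under 1 CPM. The rows of Itga4 with Itgb1 and Itgal with Itgb2 are the brightest, and the darkest cells (0.148) are those of Itgb3 in IL6Myc-1.

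For Itgav with Itgb3 the scarcer chain changed sides between lines. Itgb3 was scarcer in IL6Myc-1, IL6Myc-3, IL6Myc-4 and IL6Myc-5, where Itgav exceeded it 99.4 ± 43, 18.2 ± 3.6, 7.92 ± 1.3 and 1.36 ± 0.33 times. In IL6Myc-2 Itgav was the scarcer chain, at 0.163 ± 0.032 of the level of Itgb3. The scarcer chain of this pair was at 5.51 ± 0.86 CPM per coding kilobase in IL6Myc-2 and 4.89 ± 0.22 in IL6Myc-5. These neighbours were closer in that level than in Itgb3 alone. This is a level of transcripts and not of the pair itself. Protein was not measured, nor was the division of Itgav among its beta partners. The scarcer chain was at 1.33 ± 0.21 in IL6Myc-4, 0.670 ± 0.21 in IL6Myc-3 and 0.148 ± 0.055 in IL6Myc-1.

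For the platelet receptor pair, Itga2b was the scarcer chain in IL6Myc-2 and IL6Myc-5, at 1.45 ± 0.28 and 1.84 ± 0.24 CPM per coding kilobase. By coding length, Itga2b and Itgb3 were nearly level in IL6Myc-3 and IL6Myc-4, with ratios of 1.17 ± 0.16 and 1.15 ± 0.30. On that scale the libraries of IL6Myc-4 did not share which chain was scarcer. Itgb3 has 5784 transcript bases for 2361 coding bases, and Itga2b 3437 for 3099. Whole transcript lengths would thus raise these ratios, and the near equality depends on the length used.

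Itgav also pairs with the chain of Itgb5, which was not among the 10 members but was an abundant beta transcript in these lines. Itgb5 was at 76.4 ± 1.7 CPM in IL6Myc-2, 89.1 ± 3.7 in IL6Myc-1, 113 ± 2.3 in IL6Myc-5, 121 ± 7.1 in IL6Myc-3 and 203 ± 3.4 CPM in IL6Myc-4. Per coding length it exceeded Itgb3 273 ± 110 times in IL6Myc-1 and was at 0.919 ± 0.026 of it in IL6Myc-2. Among the 3 beta partners Itgb1, Itgb3 and Itgb5, Itgb3 took 32.2 ± 0.61% in IL6Myc-2, 4.18 ± 0.11% in IL6Myc-5 and 0.162 ± 0.060% in IL6Myc-1. These ratios and shares depend on the length used. Itgb3 has 5784 transcript bases for 2361 coding bases, and Itgb1 3815 for 2394. By whole transcript length, Itgb3 would lie further below Itgb1 in IL6Myc-2. Itgav was scarcer than Itgb5 in each line, from 5.51 ± 0.86 CPM per coding kilobase in IL6Myc-2 to 13.2 ± 1.3 in IL6Myc-1. IL6Myc-1, where Itgb3 was under 1 CPM, had the highest mean of Itgav, though not beyond that of IL6Myc-3 (edgeR adjusted p = 0.383), and both other partners above 1 CPM.

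**Figure D4:**
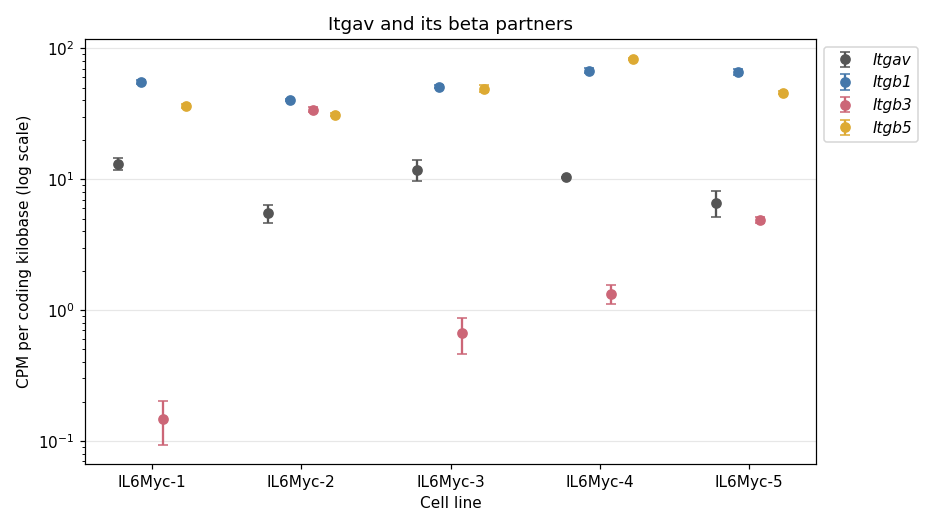
Itgav and its beta partners Itgb1, Itgb3 and Itgb5 in CPM per coding kilobase on a log axis, as mean and SD (bars) over 3 libraries of each line. By coding length, Itgb3 climbs from 0.148 in IL6Myc-1 to near the level of the other beta partners in IL6Myc-2 (34.0), where Itgav is lowest at 5.51.

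Of the 16 other integrin subunit genes, 9 passed the filter and 7 of these (77.8%) differed among the lines, beside 32.1% of all tested genes. Itga9, whose chain pairs with that of Itgb1 and binds tenascin and osteopontin, was at 23.2 ± 5.2 CPM in IL6Myc-3 and 9.01 ± 0.45 CPM in IL6Myc-1, and at 0.577 CPM or less in the other lines, with 2 counts over the 3 libraries of IL6Myc-4. IL6Myc-3 was called above IL6Myc-1 (log2 difference 1.36 ± 0.19 SE, edgeR adjusted p = 1.12e-05). At the same 1 CPM rule the Itga9 and Itgb1 pair was therefore detected in 2 lines. The collagen receptor chain Itga1 was at 64.2 ± 5.0 to 108 ± 8.1 CPM and was not called. In the annotation, 685 of its 18599 exonic bases are shared with the gene model Gm49395 on the same strand. Itga1 was the scarcer chain of its pair with Itgb1, at 18.2 ± 1.4 CPM per coding kilobase in IL6Myc-4 to 30.5 ± 2.3 in IL6Myc-5. In IL6Myc-1 it was at 19.3 ± 1.5, above the 16.8 ± 0.53 of Itgal with Itgb2 by coding length.

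The laminin and collagen receptor chains Itga6 and Itga2 were both called. Itga6 was lowest in IL6Myc-3 (1.73 ± 0.43 CPM) and highest in IL6Myc-1 (7.61 ± 1.2 CPM), and Itga2 lowest in IL6Myc-2 (2.21 ± 0.77 CPM) and highest in IL6Myc-3 (8.92 ± 0.29 CPM). The collagen receptor chain Itga10 was at 3.33 to 5.91 CPM and was not called, and Itga3, a further laminin receptor chain, reached 1.40 CPM in IL6Myc-3. Itgb8 had 0 counts in all 15 libraries, and Itgax, the alpha chain of a receptor of dendritic cells, had at most 2 counts in a library. Of 16 further pairs with these subunits, added after the values had been seen, 28 of 80 combinations of pair and line were detected.

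Ligands of these integrins were mostly scarce: of 26 listed, 9 passed the filter. Of these, 7 (77.8%) differed, beside 32.1% of all tested genes. The LFA-1 ligands Icam1 and Icam2 were highest in IL6Myc-4, at 102 ± 4.7 and 92.8 ± 2.3 CPM. That line had the highest means of Itgal and Itgb2, though Itgb2 did not differ there from IL6Myc-2 (edgeR adjusted p = 0.0653). Icam2 was called, with its lowest level of 32.2 ± 2.6 CPM in IL6Myc-1, and Icam1 was not, with a span of 0.90 log2 units. F11r, which encodes the junctional adhesion molecule JAM-A, was lowest in IL6Myc-1 (8.69 ± 1.7 CPM) and highest in IL6Myc-4 (43.4 ± 4.9 CPM).

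The VLA-4 ligand Vcam1 had 0 to 4 counts over the 3 libraries of a line. Fn1, the fibronectin gene, was at 1.48 ± 0.25 to 3.62 ± 0.55 CPM. Mfge8, whose product lactadherin is bound by receptors with the Itgav chain, was at 69.5 ± 0.13 CPM in IL6Myc-3 and had 0 counts in IL6Myc-1. With 3 counts per line as the floor, that is at least 195-fold lower than in the next line. Spp1, the gene of the Itgav and Itga9 ligand osteopontin, was highest in IL6Myc-4 at 3.46 ± 0.53 CPM. Tgfb1, whose latent form binds receptors with the Itgav chain, had its lowest level of 3.38 CPM in IL6Myc-1, and L1cam, a neural adhesion molecule, its lowest of 0.699 CPM in IL6Myc-2.

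Of 38 activators and adaptors of integrins, 34 passed the filter and 12 of these differed among the lines, a share of 35.3% beside 32.1% of all tested genes. Their median log2 span was 0.70, as over all tested genes to this precision. Talin 1 (Tln1) was at 155 ± 2.0 to 201 ± 12 CPM and kindlin 3 (Fermt3), the kindlin of blood cells, at 119 ± 2.2 to 156 ± 6.1 CPM, and neither passed the size threshold.

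Talin 2 (Tln2) had its lowest level, 0.744 ± 0.59 CPM, in IL6Myc-2, below each other line, whose means were 10.7 ± 2.0 to 25.9 ± 3.4 CPM. The tyrosine kinase Src, which acts downstream of the Itgb3 chain, reached 3.45 ± 0.29 CPM in IL6Myc-2, above each other line, whose means were 0.289 CPM or less. Rasgrp2, an exchange factor that activates Rap1, was highest in IL6Myc-4 at 6.19 ± 0.37 CPM, and the adaptor Skap1 was highest in IL6Myc-3 at 6.91 ± 1.0 CPM. Kank1 and the tensin gene Tns1 were called as well, at 2.21 CPM or less in each line.

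**Figure D5:**
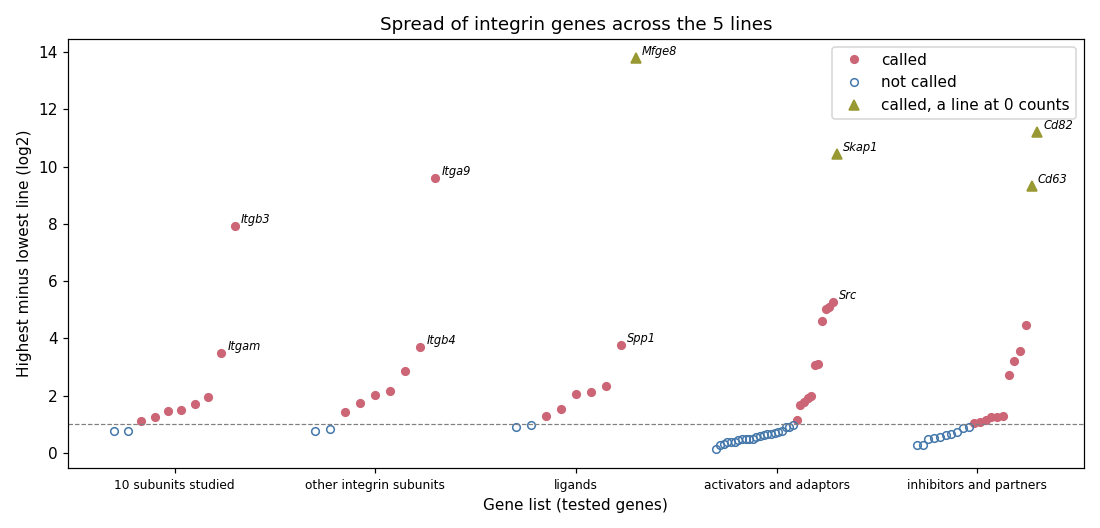
Log2 span over the 5 lines of the tested genes of each list, with filled points for genes called by the F-test, open points for genes not called, triangles for called genes with a line at 0 counts, and a dashed line at 1. Triangles depend on the prior count of the fit, and the point of Itga9 rests on 2 counts in IL6Myc-4. Itgb3 and Itgam lead the 10 subunits, and most activators and adaptors lie under the dashed line.

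By similarity of level over the 15 libraries, the 3 genes nearest to Itgb3 among 3411 candidates were Sec14l1, Syne3 and Itpr3, with Pearson's r of 0.992, 0.986 and 0.98 on log2(CPM + 1). Itpr3, a calcium channel of the endoplasmic reticulum, was lowest in IL6Myc-1 (122 CPM) and highest in IL6Myc-2 (427 CPM). For Itgam they were Rhox2d, Csn3 and Wdr31, with r of 0.975, 0.971 and 0.97. The libraries come from 5 lines, so these values describe an order of 5 units.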

How the data were processed

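The 15 libraries, 3 technical replicates per line, were made from total RNA with a stranded kit, per the labels. The submitters' processing notes name Trim Galore 0.4.0, DESeq2 and GRCm39. The aligner and the quantifier were not given in the sources used here.

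Although the table carries TPM in its name, its values were taken as estimated counts: the deposited columns sum to 19068543 to 41165599, and 30.8% to 54.3% of values above 0 and under 1.5 lie within 0.02 of 1. A further column, the mean of the libraries, was not used (1 column).

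The estimated counts were rounded and tested with edgeR 4.0.16 (R 4.3.3) by the quasi-likelihood test with the line as the only factor, TMM scaling (factors 0.848 to 1.08) and a filter of 1 CPM in 3 libraries. p-values were adjusted by Benjamini-Hochberg over all 11773 tested genes. Calls needed an adjusted p under 0.05 and a log2 difference of at least 1. The SE was derived from the log2 difference and its F statistic. Lengths and overlaps came from GENCODE vM21 on GRCm38. The only coordinates given are those of the promoter stretches shown, on GRCm38.p6. By symbol, 96.4% of entries matched GENCODE vM21. Alternatives were DESeq2 1.42.0, limma 3.58.1 on log2(CPM + 1), other filters and scaling, a replicate block and leaving out each library. Libraries within a line were not identical and differed by more than sampling noise (chi-square per degree of freedom 4.51 to 19.6). On simulated counts for IL6Myc-2 against IL6Myc-1 over 11773 genes, 90 of 100 genes changed 2-fold and 97 of 100 changed 4-fold were recovered.

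The 10 members, the gene lists and the tests were chosen with earlier results of these data known. Named are all members, the other subunits at 1 CPM in all libraries of a line, up to 6 called genes per list by size, 5 fixed genes (Tln1, Fermt3, Fn1, Vcam1, Icam1), and, for members spanning at least 2 log2 units, the 3 most similar genes. Other genes were named after their values were seen.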

Additional observations from a re-analysis of the deposited data

How the results depend on the processing

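Under all 21 alternatives, the count of members that differed among the lines was 8 and the count of members set apart in 1 line was 2. For each of the 10 members the call over the lines stayed as it was. With limma on log2(CPM + 1), however, IL6Myc-1 was no longer set apart in Itgb3. IL6Myc-2 stayed set apart in Itgb3 and Itgam. The calls between pairs of lines numbered 26 with limma on log2(CPM + 1), which shrinks low genes, and 31 to 36 when single libraries were left out, against 33. Over all genes, 2449 in place of 3783 differed when 5 CPM in 3 libraries was asked for, since fewer genes were tested, 5438 with no filter, 3057 with limma, and 3650 to 3784 when single libraries were left out. Detected combinations of pair and line were 38 at 0.5 CPM, 26 at 5 CPM, 32 at 1 CPM per coding kilobase, and 37 without any single library. With the replicate block the pair calls stayed at 33 of 33 shared and no call of a member changed, and 3785 genes differed over all. The labels' replicate numbers did not pair the libraries: same-numbered libraries of different lines had a median correlation of 0.00697, and 1 of 30 was over 0.1. Depth limits Itgb3 in IL6Myc-1, at 8 to 12 counts a library, and Itgam in IL6Myc-5, at 16 to 31.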

Other observations

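Of 24 listed genes of proteins that restrain integrins or sit beside them in the membrane, 22 passed the filter. Of these, 12 (54.5%) differed among the lines, beside 32.1% of all tested genes. The tetraspanin gene Cd82 was at 11.8 ± 1.0 CPM in IL6Myc-2, 2.42 in IL6Myc-5 and 1.33 CPM in IL6Myc-3. It had 1 count over the libraries of IL6Myc-4 and 0 counts in IL6Myc-1, where it was at least 355-fold lower than in IL6Myc-2 with 3 counts per line as the floor. Rap1gap, which switches Rap1 off, was highest in IL6Myc-2 at 127 ± 7.9 CPM and lowest in IL6Myc-3 at 19.1 ± 2.3 CPM. Spata13, a guanine nucleotide exchange factor gene, was lowest in IL6Myc-1 at 5.61 CPM, below each other line, and highest in IL6Myc-4 at 52.7 CPM. The urokinase receptor gene Plaur, whose product associates with integrins, was at 2.30 CPM or less in each line. The tetraspanin genes Cd63 and Tspan32, also called, were at most 3.18 CPM and 4.44 CPM.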
